A study of Mus musculus with 6 samples.

Results

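Neutrophils are short-lived white blood cells of the marrow that kill microbes. A list of 32 genes of their granules, their maturation and their surface receptors was looked up in calvaria, bone of the skull roof that holds marrow. The genes were taken by name, and each was read from the brightest probe set that the platform annotation ties to that gene alone. Of the 32 genes, 28 had such a probe set, out of 18193 genes with one in all. The 4 others, Cebpe, Mmp25, Retnlg and Fpr1, are not analysed here. Of the 28 genes, 26 were bright enough to be tested, as were 12859 genes in all, and Hdc and Cxcr2 were not.

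Calvaria came from 10-day-old (P10) mice of the 13del-tg line, which carry a Col10a1-13del transgene, and from wild-type littermates, called controls here. The labels describe the 13del-tg animals as having bone overgrowth and do not give the transgene's promoter or the strain. Each genotype has 3 labelled biological replicates, each on 1 Affymetrix array. The labels do not say whether a replicate is 1 animal.

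Control 1 and 13del-tg 1 held the same values for 45101 of 45101 probe sets. That array, called the shared array here, carries labels of both genotypes and is shown apart. The comparison is therefore controls 2 and 3 against 13del-tg 2 and 3. The transgene's own gene, Col10a1, had an intensity of 149.8 and 158.2 in these controls, 15689 and 11584 in 13del-tg 2 and 3, and 152.2 on the shared array, so in this gene the shared array went against its 13del-tg label. Of 12859 genes, 8 passed an adjusted p of 0.05 by limma in either direction (0.0622%). Arrays of the same genotype also differed. The 8 skeletal muscle markers listed had a summed intensity of 29865 in control 3 against 166945 in control 2, and of 175017 to 230373 in 13del-tg. The 9 osteoblast and osteocyte markers measured summed to 142577 and 159849 in the controls and to 150873 and 176086 in 13del-tg, so bone markers were bright on every array compared.

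Neutrophils mature in the marrow through stages that fill their granules in turn. Promyelocytes make the primary granules with their serine proteases and myeloperoxidase, later stages make the secondary and tertiary granules with lactoferrin, cathelicidin and metalloproteinases, and the last stages carry the receptors that guide the cell to a site of infection. The transcription factors PU.1 and C/EBP-alpha act early in this lineage, C/EBP-epsilon is needed for the secondary granule genes, and GFI1 favours neutrophils over monocytes.

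The starts of some of the genes hold the letters of a C/EBP or a PU.1 site. These sequences are from RefSeq (GRCm38.p6) and run 5′ to 3′ from 250 bases before to 50 bases after the gene's start. They are examples of starts with such letters among the primary granule, secondary granule and late genes. Capitals mark matches on either strand to TTNNGCAA, the letters of a C/EBP site, or to GAGGAAGT, the letters of a PU.1 site. Elane (chr10:79886062-79886361, plus strand), Mpo (chr11:87793534-87793833, plus strand) and S100a8 (chr3:90668821-90669120, plus strand) held the PU.1 letters. Ltf (chr9:111019042-111019341, plus strand) and Ngp (chr9:110419558-110419857, plus strand) held the C/EBP letters.
Elane: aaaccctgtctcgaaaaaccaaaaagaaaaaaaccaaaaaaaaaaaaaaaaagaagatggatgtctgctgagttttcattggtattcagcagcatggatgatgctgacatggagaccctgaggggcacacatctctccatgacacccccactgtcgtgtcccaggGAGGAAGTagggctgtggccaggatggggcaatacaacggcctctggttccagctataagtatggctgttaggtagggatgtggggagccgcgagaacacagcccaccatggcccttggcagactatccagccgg
Mpo: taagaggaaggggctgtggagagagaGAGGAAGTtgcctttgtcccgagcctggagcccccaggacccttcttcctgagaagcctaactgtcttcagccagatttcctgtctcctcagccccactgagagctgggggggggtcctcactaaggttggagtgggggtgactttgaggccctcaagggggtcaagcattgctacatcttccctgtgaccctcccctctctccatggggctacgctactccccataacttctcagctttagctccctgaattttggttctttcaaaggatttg
Ltf: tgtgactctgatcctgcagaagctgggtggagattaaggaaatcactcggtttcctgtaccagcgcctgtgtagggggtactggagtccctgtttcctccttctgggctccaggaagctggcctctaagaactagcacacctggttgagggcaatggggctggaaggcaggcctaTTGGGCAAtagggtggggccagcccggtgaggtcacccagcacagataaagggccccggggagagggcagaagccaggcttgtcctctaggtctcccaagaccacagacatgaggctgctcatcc
Ngp: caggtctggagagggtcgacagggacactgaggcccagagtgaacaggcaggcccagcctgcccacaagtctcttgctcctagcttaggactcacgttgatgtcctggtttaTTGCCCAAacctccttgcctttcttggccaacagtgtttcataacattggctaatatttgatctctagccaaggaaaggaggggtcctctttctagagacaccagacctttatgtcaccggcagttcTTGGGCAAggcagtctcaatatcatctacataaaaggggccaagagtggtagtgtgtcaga
S100a8: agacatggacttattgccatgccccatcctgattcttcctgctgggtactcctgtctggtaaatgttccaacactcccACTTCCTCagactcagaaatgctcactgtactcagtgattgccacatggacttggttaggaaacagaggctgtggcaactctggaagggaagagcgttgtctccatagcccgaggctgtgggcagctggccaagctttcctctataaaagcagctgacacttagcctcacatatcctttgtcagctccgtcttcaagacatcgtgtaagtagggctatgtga

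Of the 32 genes, 29 had an entry in the sequence table, with 30 starts in all, and Cebpe, Hp and Trem3 had none. The C/EBP letters were in 10 of these 30 starts (33.3%) and in 10.8% of the 32851 starts of all genes. They were found at Fcnb, Gfi1, Lcn2, Ltf, Mmp8, Ms4a3, Ngp, Retnlg, S100a9 and Slpi. The PU.1 letters were in 6 of 30 (20.0%), at Elane, Ltb4r1, Mmp8, Mpo, Prtn3 and S100a8, and in 3.2% of all starts. Mmp8 alone held both, without overlap. The shorter ETS core GGAAGT, which lies inside the PU.1 letters, was in 53.3% of these starts and 23.8% of all, AAATCA, the core of a GFI1 site, in 16.7% and 14.0%, and TGTGGTT, a RUNX site, in 0 and 5.27%. A match is a description of the letters and not a bound site. The 9 tested genes with C/EBP letters had a median difference between genotypes of -0.70 on the log2 scale, and the 15 without had -0.58. The 6 with PU.1 letters had -0.62, and the 18 without had -0.66.

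In 13del-tg against control, all 26 tested neutrophil genes had a negative difference, and none passed the test over all genes. The differences, 13del-tg minus control on the scale of log2(signal + 16), ran from -1.37 to -0.11 with a median of -0.57, where the median of all genes was -0.07 and 58.8% of all genes were negative. By limma 0 of the 26 had an adjusted p under 0.05 in either direction, with 0.715 the smallest, where 0.0467% of all genes were lower at that level. At an unadjusted limma p under 0.05, 1 of the 26, Ltf, was lower and 0 were higher, where 5.31% of all genes were lower and 1.49% higher. Ltf did not pass that level with quantile normalization, with each array centred on its median or without the trend in eBayes, among other settings. Differences under -1 were found for 2 of the 26, Chil3 and Ltf, and for 2.43% of all genes. The genotypes did not overlap for 4 of the 26 genes (Lcn2, Mmp8, Fpr2 and Trem1), each lower in 13del-tg, and 26.3% of all genes were separated in that direction. The other 22 overlapped between the genotypes. A lower signal in bulk bone, where it is found, does not tell fewer neutrophils from less RNA per neutrophil.

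Most of the 26 genes were lowest on 13del-tg 2. That array was the lowest of the 4 compared for 24 of the 26 genes, all but Csf3r and Trem1, where it was the lowest for 26.5% of all genes. Array 13del-tg 3 lay between the controls for 16 of the 26, below both for 5 and above both for 5. Over all genes these shares were 27.1%, 44.9% and 28.0%. Against the mean of the controls, the median over the 26 genes was -1.24 on 13del-tg 2 and 0.11 on 13del-tg 3. Without 13del-tg 2, which leaves 1 array in its group, 11 of the 26 differences were negative, where 58.5% of all genes were. The most negative of the 26 were then Trem1 at -1.11 and Ltf at -0.55, and their median was 0.11. Without 13del-tg 3 the median was -1.24, and 16 of the 26 were lower at an unadjusted limma p under 0.05, where 4.16% of all genes were. Without control 2 the median was -0.91 with 5 such genes (5.27% of all genes), and without control 3 it was -0.36 with 0 (2.64%).

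**Figure D1:**
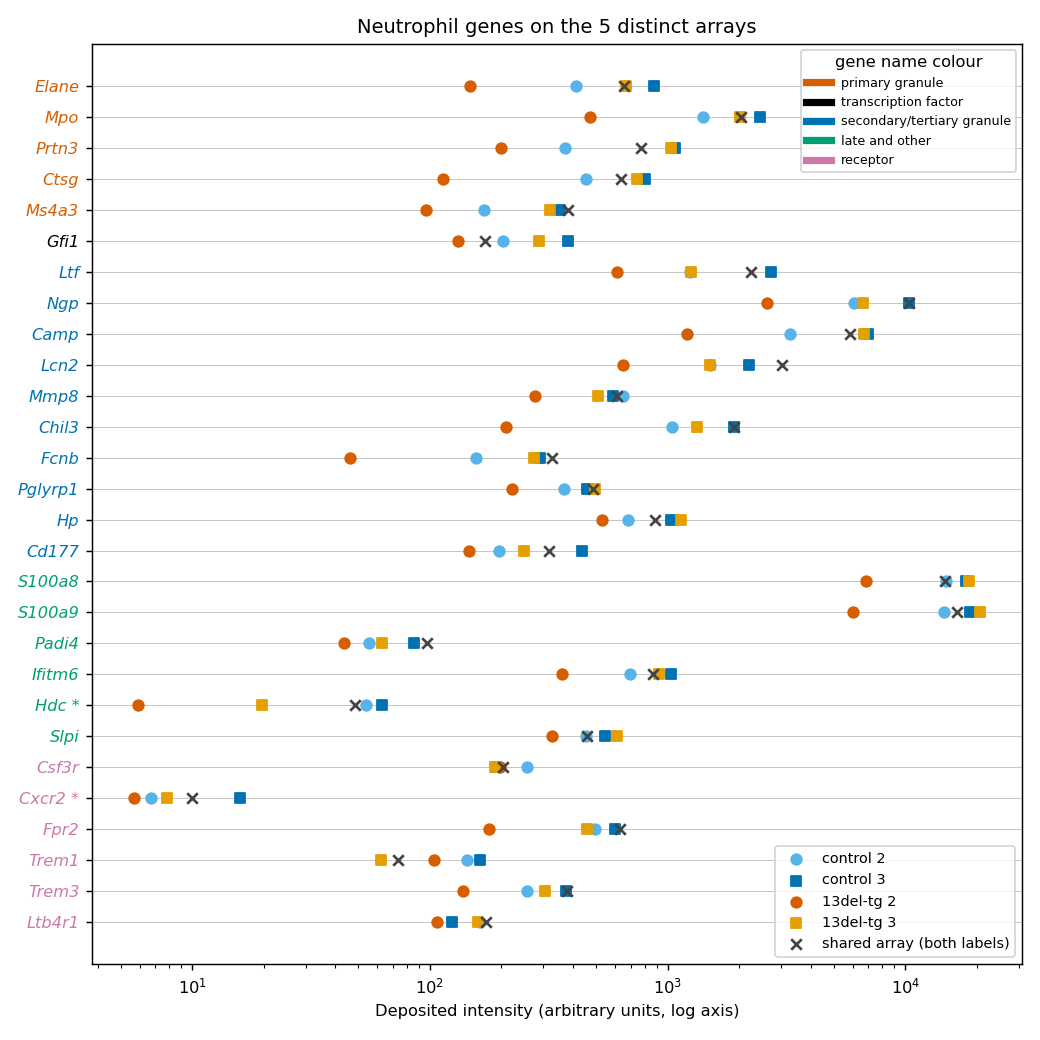
Deposited intensity (log axis) of the 28 measured neutrophil genes on the 5 distinct arrays, 1 point per array, with gene names coloured by role and an asterisk on the 2 genes too dim to be tested. The red circle of 13del-tg 2 is the leftmost of the 4 compared arrays for 24 of the 26 tested genes, whereas 13del-tg 3 mostly lies among the controls; levels of different genes come from different probes and are not comparable.

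The primary granule genes showed the widest spread between arrays. Mpo, myeloperoxidase, an enzyme that makes hypochlorous acid, had a signal of 1412 in control 2, 2443 in control 3, 471.5 in 13del-tg 2 and 2015 in 13del-tg 3, with 2039 on the shared array. Only 13del-tg 2 lay outside the range of the controls, so the groups overlapped. The difference was -0.91 (SE 0.62, limma adjusted p = 0.733). Pairs of values for the genes that follow are likewise in the order of replicates 2 and 3.

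Elane, neutrophil elastase, gave 411.2 and 872.8 in the controls and 147.4 and 668.4 in 13del-tg, with 658.2 on the shared array. Prtn3, proteinase 3, which lies next to Elane in the RefSeq gene order with no protein-coding gene between, gave 370.7 and 1070 in the controls and 199.7 and 1033 in 13del-tg, with 774.9 on the shared array. Both proteases thus had the same order of arrays, 13del-tg 2 lowest and control 3 highest. Ctsg, cathepsin G, gave 454.3 and 804.4 in the controls and 113.1 and 741.8 in 13del-tg, with 637.2 on the shared array. Ms4a3, a membrane protein of granulocyte and monocyte progenitors, gave 168.8 and 351.5 in the controls, 96.0 and 319.7 in 13del-tg and 381.6 on the shared array. For Ctsg and Ms4a3, too, 13del-tg 2 was the lowest array and the groups overlapped.

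Among the 5 primary granule and promyelocyte genes the differences ran from -0.99 (Ctsg, SE 0.75) to -0.43 (Ms4a3, SE 0.57), with a median of -0.88. Their median was -1.91 on 13del-tg 2 and 0.29 on 13del-tg 3. Gfi1, which encodes the repressor named above, gave 203.8 and 379.2 in the controls, 131.8 and 289.0 in 13del-tg and 169.8 on the shared array. Its difference was -0.47 (SE 0.45, limma adjusted p = 0.796), and both 13del-tg 2 and the shared array were below the controls.

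Of 11 secondary and tertiary granule genes, 10 were tested, with differences from -1.37 to -0.11 and a median of -0.76. Ltf, which encodes the iron-binding lactoferrin, gave 1247 and 2713 in the controls and 615.1 and 1253 in 13del-tg. Control 2 and 13del-tg 3 were almost alike, and the shared array had 2245. The difference was -1.05 (SE 0.44, limma unadjusted p = 0.0494 and adjusted p = 0.715), from a mean of 1980 ± 1037 to 934 ± 451 (SD, n = 2 each).

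Ngp, neutrophilic granule protein, gave 6108 and 10391 in the controls, 2615 and 6658 in 13del-tg and 10395 on the shared array. Camp, the cathelicidin that yields an antimicrobial peptide, gave 3268 and 6955 in the controls, 1209 and 6706 in 13del-tg and 5842 on the shared array. Both lie on the chromosome that also holds Ltf, with 8 protein-coding genes between Camp and Ngp and 20 between Ngp and Ltf. In Ngp and Camp 13del-tg 3 lay within the range of the controls, and their differences were -0.93 (SE 0.45) and -0.74 (SE 0.74). Chil3, a chitinase-like protein of neutrophils and some macrophages, gave 1048 and 1896 in the controls, 208.6 and 1335 in 13del-tg and 1910 on the shared array. It had the most negative difference of the 26 genes, -1.37, with a wide error (SE 0.75, limma adjusted p = 0.717).

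For 2 of the 10 tested genes of this role the genotypes did not overlap, both lower in 13del-tg. Over all genes 26.3% were separated in that direction. Lcn2, lipocalin 2, which binds bacterial siderophores, gave 1515 and 2192 in the controls and 649.0 and 1509 in 13del-tg. Control 2 and 13del-tg 3 were again almost level, and the shared array, at 3024, was above all of them. Mmp8, neutrophil collagenase, gave 650.9 and 591.6 in the controls, 277.7 and 510.1 in 13del-tg and 614.3 on the shared array. Its controls were close to each other, and its difference was -0.70 (SE 0.32, limma adjusted p = 0.715), against -0.87 (SE 0.40) for Lcn2.

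The other secondary granule genes were Fcnb, a lectin of the complement pathway (-0.78, SE 0.70), Cd177, a surface glycoprotein (-0.58, SE 0.44), Pglyrp1, which binds peptidoglycan (-0.29, SE 0.39), and Hp, which encodes haptoglobin (-0.11, SE 0.39). Fcnb ran from 46.0 on 13del-tg 2 to 325.5 on the shared array. For Pglyrp1 and Hp 13del-tg 3 was above both controls, at 495.7 against 366.2 and 458.6, and at 1143 against 683.1 and 1033. The Hp difference turned to 0.07 with each array centred on its median.

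S100a8 and S100a9, neighbouring genes whose products pair as calprotectin in the cytosol of mature neutrophils, had high signals on all 5 arrays. S100a8 gave 14900 and 17957 in the controls, 6833 and 18537 in 13del-tg and 14679 on the shared array. S100a9 gave 14520 and 18805 in the controls, 6054 and 20653 in 13del-tg and 16532 on the shared array. In both, 13del-tg 2 was the lowest array and 13del-tg 3 the highest, so the SD over the 13del-tg arrays, 8276 for S100a8 and 10323 for S100a9, exceeded that of the controls, 2162 and 3030. The differences were -0.54 (SE 0.42) and -0.56 (SE 0.51).

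Ifitm6, of the interferon-induced transmembrane family, gave 697.5 and 1034 in the controls, 361.1 and 916.9 in 13del-tg and 871.2 on the shared array. Slpi, which inhibits elastase and cathepsin G, gave 455.3 and 547.8 in the controls, 325.1 and 612.1 in 13del-tg and 459.4 on the shared array. Both again had 13del-tg 2 below the other arrays and no separation of the genotypes. Padi4, the enzyme that citrullinates histones in extracellular traps, was dim, at 55.5 and 85.8 in the controls, 43.7 and 63.0 in 13del-tg and 97.3 on the shared array. Hdc, which makes histamine, was too dim to be tested, at 53.7 and 62.8 in the controls, 5.9 and 19.7 in 13del-tg and 48.4 on the shared array. Its other probe set, also not tested, gave 12.0 and 77.5 in the controls, 6.0 and 16.3 in 13del-tg and 66.8 on the shared array.

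The receptors had the smallest median differences between arrays of a genotype. Csf3r, the receptor of the growth factor G-CSF, gave 255.9 and 189.5 in the controls, 196.2 and 188.2 in 13del-tg and 202.4 on the shared array, a difference of -0.18 (SE 0.30). It did not share the low 13del-tg 2 signal of the granule genes. Fpr2, a receptor for formylated peptides of bacteria, gave 493.6 and 598.9 in the controls, 176.4 and 458.5 in 13del-tg and 628.6 on the shared array. Its difference was -0.89 (SE 0.42, limma adjusted p = 0.715), and the genotypes did not overlap.

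Trem1, a receptor that amplifies inflammation, and Trem3, a related receptor encoded beside it, had different orders. Trem1 gave 143.6 and 161.7 in the controls, 104.5 and 62.1 in 13del-tg and 73.7 on the shared array. Besides Csf3r it was the only tested gene of the 26 whose lowest signal among the 4 compared arrays was on 13del-tg 3. Its difference was -0.80 (SE 0.38), and a further Trem1 probe set lay at 2.7 to 5.9 on all 5 arrays. Trem3 gave 256.8 and 372.4 in the controls, 137.3 and 304.0 in 13del-tg and 377.4 on the shared array. Ltb4r1, a receptor of leukotriene B4, gave 161.7 and 124.2 in the controls, 106.7 and 159.5 in 13del-tg and 171.4 on the shared array, and its sign depended on the scaling (-0.11 as deposited, 0.08 with quantile normalization or arrays centred on the median). Cxcr2, a receptor of chemokines, lay at 5.7 to 15.9 on all 5 arrays and was not tested.

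**Figure D2:**
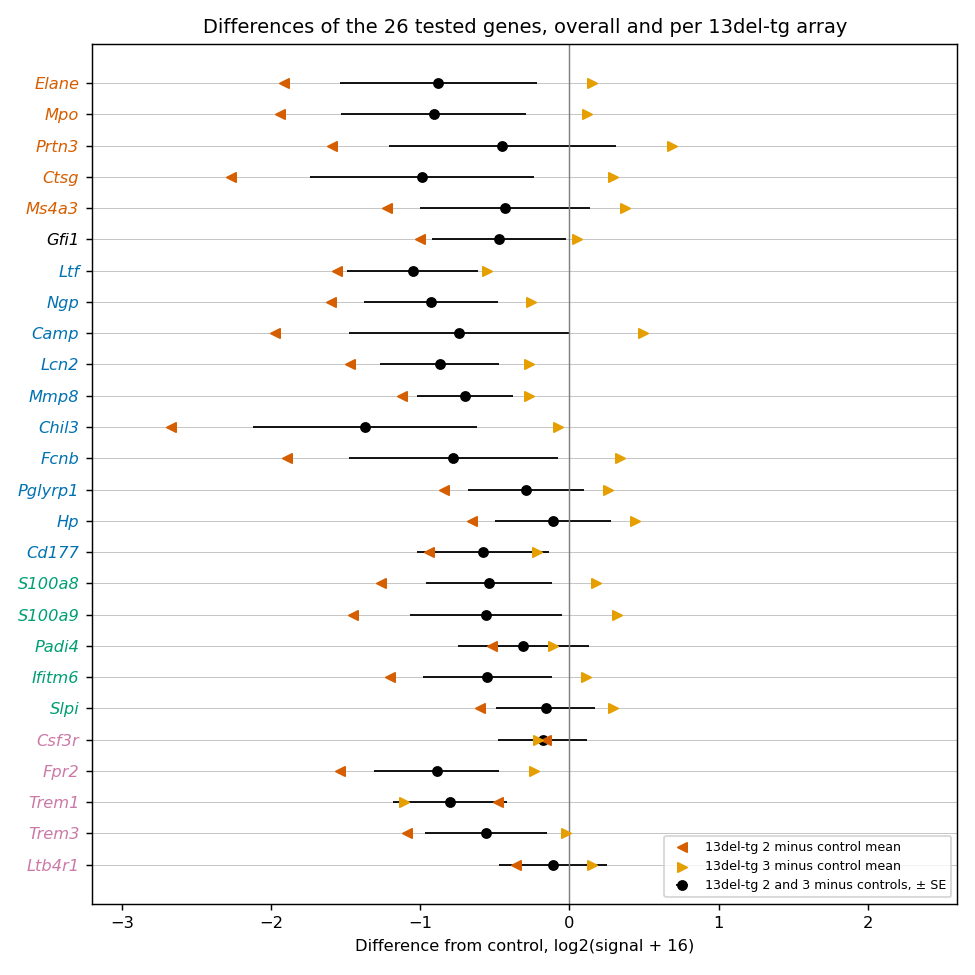
Differences of the 26 tested genes on the log2(signal + 16) scale, with the black point and bar giving 13del-tg 2 and 3 minus controls 2 and 3 with the limma SE, and triangles giving each 13del-tg array minus the control mean. Left-pointing triangles (13del-tg 2) lie at a median of -1.24 and right-pointing ones (13del-tg 3) at 0.11; gene names are coloured by role as in the plot of intensities.

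Within each genotype the 2 compared arrays differed as well. Control 3 was above control 2 for 23 of the 26 genes, all but Mmp8, Csf3r and Ltb4r1, and 13del-tg 3 was above 13del-tg 2 for 24, against 52.1% and 46.8% of all genes. The median of control 3 minus control 2 was 0.57, and that of 13del-tg 3 minus 13del-tg 2 was 1.25, beside the median genotype difference of -0.57. The first 2 set 1 array against 1, and the last sets a mean of 2 arrays against a mean of 2. Their sizes are therefore not directly comparable. By role, the primary granule genes had medians of 0.99 and 2.07, the secondary and tertiary granule genes 0.80 and 1.15, the late genes 0.37 and 1.31, and the receptors 0.15 and 0.52. These medians rest on 5 to 10 genes each and were not compared by a test.

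Across the 26 genes the 2 within-genotype differences, which share no array, had a Pearson r of 0.63 and a Spearman rho of 0.55. Over all 12859 genes these were 0.27 and 0.21. Genes of an array are not independent, and both values are given as a description. The SE of each of the 26 genes was above the median SE of all genes, 0.26, and their median SE was 0.44.

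**Figure D3:**
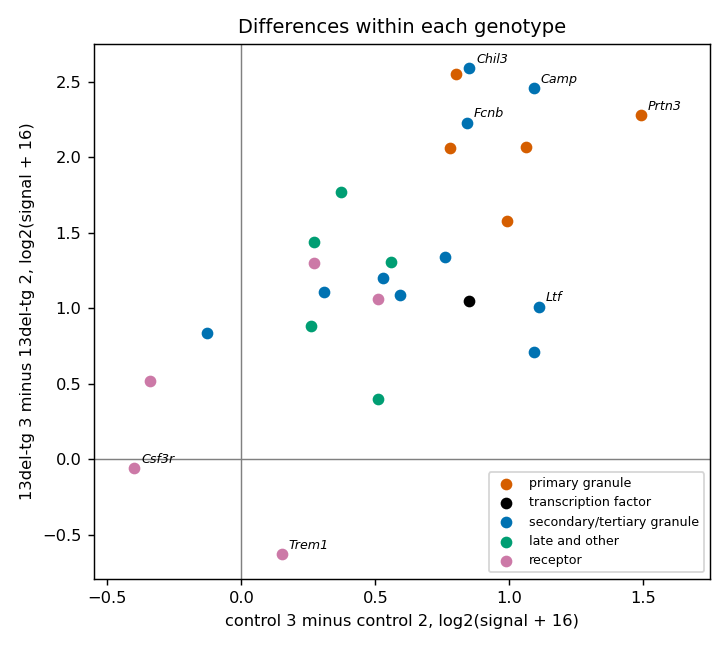
Each point is 1 of the 26 tested neutrophil genes, with control 3 minus control 2 on the horizontal axis and 13del-tg 3 minus 13del-tg 2 on the vertical axis, both on the log2(signal + 16) scale, coloured by role. There are 22 genes above 0 on both axes, with primary granule genes toward the upper right and the receptors toward the lower left (Pearson r of 0.63 across genes). The signs depend on the replicate numbers, which are not shown to pair the samples.

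The shared array did not have the low neutrophil signals of 13del-tg 2. Its median against the mean of the controls was 0.17 over the 26 genes. It lay between the controls for 13 genes, above both for 10 and below both for 3 (Gfi1, S100a8 and Trem1). Over all genes 23.8% lay between, 34.5% above both and 41.7% below both. It was above 13del-tg 2 for 25, all but Trem1, where 54.5% of all genes were. Counted as a control alone, it gave a median difference of -0.62 with 5 of the 26 lower at an unadjusted limma p under 0.05, where 5.04% of all genes were. Counted as 13del-tg alone, it gave a median of -0.36 with 1 such gene, Trem1, where 4.15% of all genes were lower.

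Of 50 other genes of the neutrophil lineage, 37 were tested. Of these 29 were negative and 8 positive, with a median of -0.21, where 58.8% of all genes were negative. On both 13del-tg arrays 12 of the 37 were below both controls, and 26.3% of all genes were. By limma 0 passed over all genes. At an unadjusted limma p under 0.05, 5.31% of all genes were lower, and 5 of the 37 were. These were Myb (-1.74, SE 0.38), a transcription factor of progenitors, Nfe2 (-2.01, SE 0.46), which also acts in red cell and platelet precursors, Prom1 (-1.23, SE 0.32), a membrane protein of progenitors, Itgb2 (-0.74, SE 0.25), the integrin chain of all leukocytes, and Mcemp1 (-0.88, SE 0.33). Myb gave 1272 and 1773 in the controls, 295.9 and 645.4 in 13del-tg and 1553 on the shared array. It was thus below both controls on 13del-tg 3 as well as on 13del-tg 2. Stfa3, Stfa2l1 and Wfdc21 were above both controls on 13del-tg 3, at 3512, 3079 and 777.3, and lowest on 13del-tg 2. Cebpd had the list's most positive difference, 0.38 (SE 0.25). Against the mean of the controls, the median over the 37 genes was -0.38 on 13del-tg 2 and -0.16 on 13del-tg 3.

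Of 12 genes for signals that raise or hold neutrophils, 6 were tested. None was lower or higher at an unadjusted limma p under 0.05, where 5.31% of all genes were lower and 1.49% higher. Cxcr4, the receptor that retains neutrophils in marrow, had -0.95 (SE 0.40), the cytokine gene Il1b -0.89 (SE 0.44), Cxcl12, the ligand of Cxcr4, -0.41 (SE 0.21), and Vcam1, an adhesion molecule, -0.27 (SE 0.19). Cxcl1, a neutrophil chemokine, had the list's 1 positive difference, 0.31 (SE 0.23). Csf3, which encodes G-CSF, was too dim to be tested, at 4.4 to 57.0 on the 5 arrays.

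Other marrow lineages were set beside the neutrophil genes by array. All 7 tested erythroid genes were negative, where 58.8% of all genes were. All 7 were lower at an unadjusted limma p under 0.05, where 5.31% of all genes were, and the erythroid median was -2.32. The median was -2.93 on 13del-tg 2 and -1.81 on 13del-tg 3. Of the 10 tested B lineage genes, 10 were negative and 7 lower at that level, with medians of -2.03 and -0.80 on these arrays. The 5 tested platelet genes had medians of -1.27 and -0.12, so they too were low on 13del-tg 2 and near the controls on 13del-tg 3. The 10 monocyte and macrophage genes had -0.11 and -0.19, with 0 lower by limma at an unadjusted p under 0.05. No test of the difference between these lists was made.

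The summed intensity of the 28 neutrophil genes was 50259 and 72832 in the controls, 22024 and 67182 in 13del-tg and 64857 on the shared array. That of the 8 measured erythroid genes was 21609 and 21716 in the controls, 7319 and 8571 in 13del-tg and 16090 on the shared array. Erythroid sums thus separated the genotypes, and neutrophil sums did not. These sums are weighted toward the brightest probe sets, such as those of S100a8 and S100a9 for the neutrophil genes and Alas2 and Tfrc for the erythroid genes. No gene of these lists was listed at 0. The summed intensity of the skeletal muscle markers, though not that of each marker, was higher on 13del-tg 2, the array with the lowest neutrophil sum, than on the other 4, at 230373. The muscle sum was 29865 on control 3 and 175017 on 13del-tg 3, and the neutrophil sums of these arrays were 72832 and 67182. The part of muscle or of other marrow cells in the neutrophil differences was not tested.

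**Figure D4:**
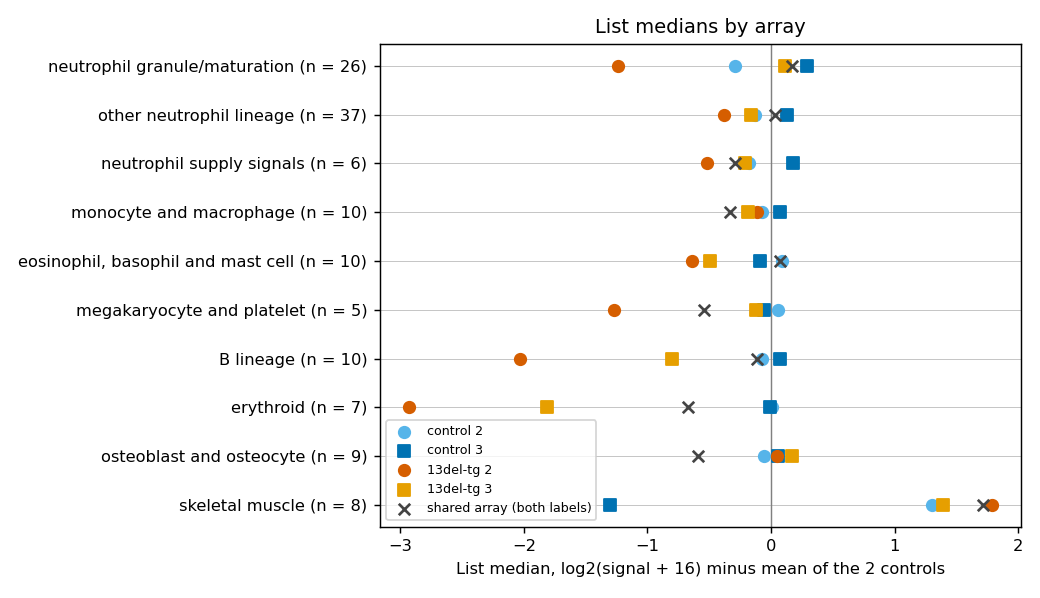
Median over the tested genes of each list on each of the 5 distinct arrays, as log2(signal + 16) minus the mean of controls 2 and 3, with the number of genes beside each list. Neutrophil genes were low on 13del-tg 2 (-1.24) and near the controls on 13del-tg 3 (0.11), whereas erythroid genes were low on both (-2.93 and -1.81).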

How the data were processed

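The parietal bones had been cryosectioned before RNA was taken with TRIZOL, and the RNA was copied to biotinylated antisense RNA, per the labels' protocols. Each deposited value is an intensity, on a linear scale, of 1 probe set in 1 sample. The submitters' processing notes name MAS5 without a version. Leaving out 2% of probe sets at each end, the mean was 500.003 on every array, so the arrays had been scaled to a common level before deposit, and MAS5 values of dim probe sets vary widely on a log scale. With 2 arrays per genotype, their number limits the precision.

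Intensities were transformed as log2(signal + 16). Probe sets with a mean over the 5 distinct arrays under the 40th percentile (6.28, a signal of 61.9) were not tested, nor were the 64 control probe sets. Of 45101 probe sets, 34945 had 1 gene symbol in the platform annotation, 932 several and 9160 none. Each gene was read from its brightest probe set. The two-sided test was limma 3.58.1 run in R 4.3.3, with lmFit and a trended eBayes, and p-values were adjusted over all 12859 genes by Benjamini-Hochberg. The fit had 2 residual and 5.01 prior degrees of freedom, so each gene's variance was drawn largely from the trend over all genes. The p-values rest on that moderated spread between these samples and not on the gene's own spread alone. An exact permutation test of 2 arrays against 2 cannot go below p = 0.333. On simulated data for this comparison, 20 sets of 12859 genes with 200 changed, 5.37% of changes of 1 on the log2 scale were called, 62.9% of 2 and 93.6% of 4, and 4.23% of calls were false. In all 17 alternatives were run.

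The members, the lists and the left-out array were chosen with earlier results of these data known. By rule, all members are named, and up to 4 genes are named in each other list described. By the same rule, values per array are given for up to 5 tested members per role with the smallest unadjusted p and for chosen members. Mcemp1, Cxcl1, Csf3, Cebpd, Stfa3, Stfa2l1 and Wfdc21 were named after their values were seen. The eosinophil, basophil and mast cell list had 9 of 10 tested genes negative (median -0.50), the osteoblast and osteocyte list 4 of 9 (0.01), the skeletal muscle list 1 of 8 (1.60) and the pineal and photoreceptor list 8 of 8 (-4.36), with 1, 1, 0 and 8 lower at an unadjusted limma p under 0.05. Over all genes 58.8% were negative and 5.31% were lower at that level. Against the mean of the controls, the pineal and photoreceptor median was -4.26 on 13del-tg 2, -4.26 on 13del-tg 3 and -3.81 on the shared array. In this list the shared array was thus unlike controls 2 and 3.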

Additional observations from a re-analysis of the deposited data

Results flagged for a closer look

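Lcn2 had a signal of 3024 on the shared array, which enters no comparison, against 1515 and 2191.8 in controls 2 and 3. It was above the higher control by 0.46 on the log2 scale, more than the SD between the controls, 0.37.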

How the results depend on the processing

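Leaving out 1 array at a time moved the median difference of the neutrophil genes between -1.24 and 0.11, the number of negative differences between 11 and 26, and the number lower at an unadjusted limma p under 0.05 between 0 and 16. With 1 array left in a group, that array is assumed to vary like the others. Of 104 such differences of single genes, 20 changed sign. The differences then ran from -1.91 to 0.15 for Elane, -1.94 to 0.12 for Mpo, -1.59 to 0.69 for Prtn3, -2.27 to 0.29 for Ctsg, -1.22 to 0.37 for Ms4a3, -1.0 to 0.05 for Gfi1, -1.97 to 0.49 for Camp, -1.89 to 0.34 for Fcnb, -0.84 to 0.26 for Pglyrp1, -0.65 to 0.44 for Hp, -1.26 to 0.18 for S100a8, -1.45 to 0.32 for S100a9, -1.20 to 0.11 for Ifitm6, -0.60 to 0.29 for Slpi, -0.39 to 0.02 for Csf3r and -0.36 to 0.15 for Ltb4r1. The cause was not tested.

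Of 334 single-gene differences under the 13 other alternatives, 329 kept their direction. The 5 others were Hp at 0.07, Slpi at 0.03 and Ltb4r1 at 0.08 with arrays centred on the median, which moved the median of all genes to 0.11, Ltb4r1 at 0.08 with quantile normalization and Ltb4r1 at 0.01 where the shared array counted as a 13del-tg sample alone. The count lower at an unadjusted p was 0 with a pseudocount of 1, a filter at the 60th percentile, median centring, robust eBayes or the shared array under both labels, and 5 with it as control only. Where the count stayed at 1, the gene was Ltf with a pseudocount of 64 or the mean of probe sets, Hdc with no filter, Ngp with quantile normalization, and Trem1 with eBayes without trend, with the shared array as a 13del-tg sample or without 13del-tg 2. The replicate numbers are not shown to pair the samples, with 2 pairs and a correlation of same-numbered deviations of 0.27. With the replicate block, 14 were lower at an unadjusted p, where 8.58% of all genes were, and 9 passed an adjusted p, with 1 residual degree of freedom and 271 higher and 338 lower calls over all genes.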
